A study of Rattus norvegicus with 20 samples.

Results

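The genes of a pair of peptide transporters, Slc15a2 (ENSRNOG00000002305) and Slc15a4 (ENSRNOG00000000962), were followed in choroid plexus from female Zucker rats, lean or obese. They are 2 of the 32883 Ensembl genes listed for each rat. Both genes were chosen by their measured TPM in these same libraries, for how it differed between groups: Slc15a4 between the untreated obese and lean rats and Slc15a2 between the injected obese and lean rats. Those values are therefore described without a test, and a test is given only for the other contrast of each gene, on which the choice did not rest. Earlier results of these data were known at the choice, so these tests are not fully independent of it.

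The 20 libraries came from 1 rat each, all females aged 16 weeks on normal chow. In the untreated cohort, 6 lean rats (+/fa, carriers of 1 mutated copy of the leptin receptor gene) were set beside 6 obese rats (fa/fa, without a functional leptin receptor). In the injected cohort, 4 lean rats received the sesame oil vehicle (VEH, termed lean control) and 4 obese rats received testosterone propionate in the same oil (TT, termed obese + TT), both by subcutaneous injection over the weeks before the experiment. No group holds obese rats given vehicle or lean rats given testosterone, so obesity and testosterone cannot be told apart in the injected cohort, and the injections cannot be told apart from the cohort. The plexus of the lateral ventricles and that of the hindbrain ventricle went into each sample, and in such whole tissue a smaller share of one cell type cannot be told apart from less RNA per cell.

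The SLC15 family moves short peptides across membranes by coupling them to protons. Slc15a2 encodes PEPT2, a high-affinity carrier which, in the choroid plexus, sits in the epithelial membrane facing the ventricle and clears dipeptides, tripeptides, peptide-like antibiotics and the haem precursor 5-aminolevulinic acid from the cerebrospinal fluid (CSF). Slc15a4 encodes PHT1, which carries histidine and small peptides out of endosomes and lysosomes and is best known from immune cells, where it takes part in signalling by endolysosomal Toll-like receptors. The other members of the family, Slc15a1, Slc15a3 and Slc15a5, were not analysed here, since the tables used give no Ensembl identifier for them.

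The stretches of 250 bases before the annotated transcription start are shown to set the start regions of both genes side by side. They come from RefSeq on the rat build GRCr8, while the expression files use Rnor_6.0, and both read 5′ to 3′ on the plus strand. Slc15a2 is at chr11:77519315-77519564 and Slc15a4 at chr12:34698725-34698974. Capitals mark the matches, on either strand, to any of the motifs searched.

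Slc15a2: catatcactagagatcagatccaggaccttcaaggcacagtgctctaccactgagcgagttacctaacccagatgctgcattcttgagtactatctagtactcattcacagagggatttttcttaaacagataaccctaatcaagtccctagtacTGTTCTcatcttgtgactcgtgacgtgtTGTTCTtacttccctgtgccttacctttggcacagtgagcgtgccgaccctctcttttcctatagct

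Slc15a4: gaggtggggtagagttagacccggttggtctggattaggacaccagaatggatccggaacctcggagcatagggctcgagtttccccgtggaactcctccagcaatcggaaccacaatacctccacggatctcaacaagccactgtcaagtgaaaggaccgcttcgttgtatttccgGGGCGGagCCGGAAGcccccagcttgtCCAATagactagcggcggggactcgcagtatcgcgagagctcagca

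The stretch before Slc15a4 is the richer in CpG, the dinucleotide that gathers in CpG islands. It holds 17 CpG at a G + C content of 57.6%, and 21.9% of the 33469 stretches of this length in the RefSeq table hold as many CpG or more. The stretch before Slc15a2 holds 5 CpG at 45.6% G + C, a CpG count reached by 55.3% of the stretches. The letters searched on both strands were GGGCGG for the GC box bound by Sp-type factors, and CACGTG for the E-box of the basic helix-loop-helix factors. For the core that ETS family factors bind they were CCGGAAG, and the CCAAT box was searched by the letters in its name. The TATA box of the basal transcription machinery was searched as TATAAA, and the half-site shared by the androgen and glucocorticoid receptors as AGAACA. Slc15a4 matched the GC box, the ETS core and the CCAAT box, which 30.5%, 7.27% and 34.0% of all stretches also held. Slc15a2 matched the AGAACA half-site at 2 positions, both on the minus strand, from -95 to -90 and from -67 to -62 relative to the start. At least 1 such half-site was in 17.5% of all stretches and at least 2 were in 2.13%. Neither stretch held an E-box (5.59% of all) or a TATA box (12.9% of all), and no 2 matches shared a base. These letters are a description only, and binding was not measured. In GRCr8 the span of Slc15a4 is overlapped by Glt1d1, a glycosyltransferase-like gene, and the start used here lies inside that span. Whether reads were counted by strand is not given in the sources used here, so the level of Slc15a4 may hold reads of that neighbour.

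The libraries were checked against their labelled tissue. All 10 choroid plexus epithelial markers listed were present in every rat, and Ttr (transthyretin, the main secreted protein of this tissue) alone took 31.2 to 39.3% of the summed TPM in the untreated rats and 25.8 to 30.5% in the injected rats. TPM, a transcript's share of its library after division by length, lets different genes be set side by side, but hides how many reads lay behind each level. Both transporters sat near the middle of the genes with a signal. Slc15a2 ranked between the 48.8 and the 68.6 percentile of the genes above 0 TPM in a rat, and Slc15a4 between the 43.6 and the 59.1 percentile.

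Slc15a2 was lower on average in the obese than in the lean rats of either cohort, although the groups overlapped each time. In the 6 untreated lean rats it was between 6.92 and 10.75 TPM with a median of 9.42 TPM. In the 6 untreated obese rats it was between 5.03 and 9.34 TPM with a median of 7.93 TPM. Of the obese rats, 2 were below every lean rat and none was above the highest lean rat. The lean control rats 13, 14, 15 and 16 had 10.31, 16.06, 15.56 and 15.62 TPM. The obese + TT rats 17, 18, 19 and 20 had 9.89, 8.35, 9.63 and 11.95 TPM. Of these, 3 were below every lean control rat, and rat 20 was above lean control rat 13 only.

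**Figure D1:**
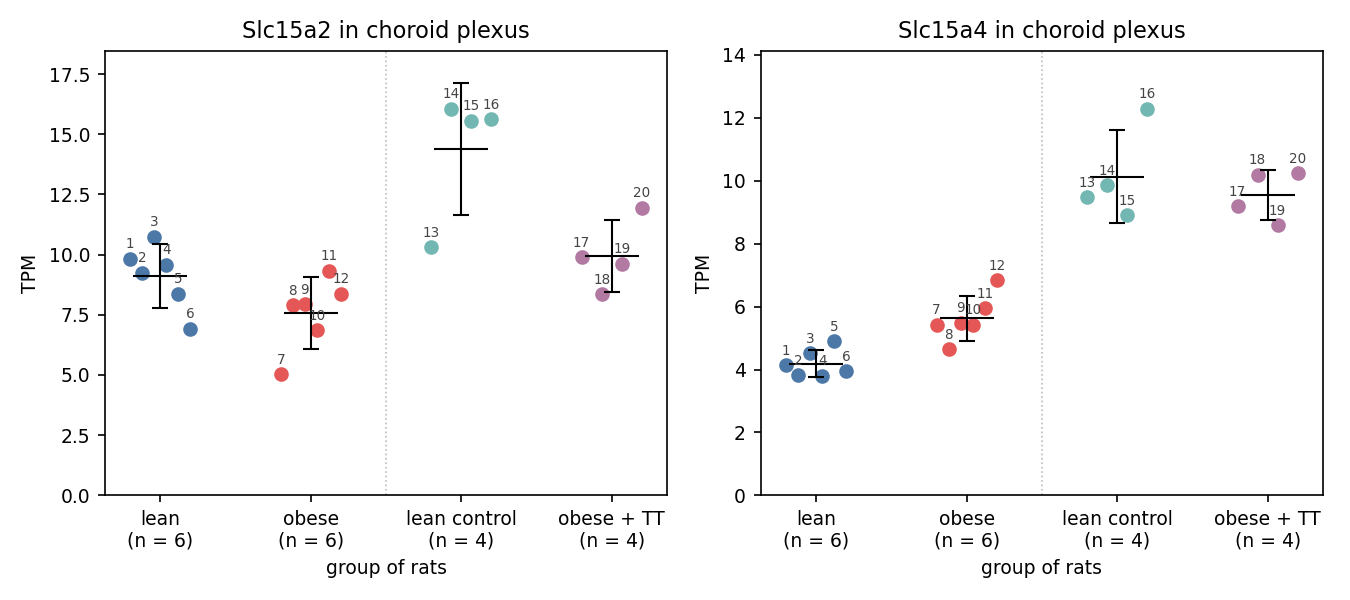
TPM of Slc15a2 (left) and Slc15a4 (right) in the choroid plexus of each rat, by group. Points are single rats with their number, and bars give the mean ± SD. Slc15a2 was highest in 3 lean control rats (15.56 to 16.06 TPM), and Slc15a4 in each injected rat (8.59 TPM or more) was above each untreated rat (6.83 TPM or less).

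Slc15a2 was chosen on the other contrast, so its difference between the untreated groups was tested, with earlier results of these data known. The mean was 9.12 ± 1.32 TPM in the lean rats and 7.58 ± 1.48 TPM in the obese rats (SD, n = 6 of each). The log2 fold change of TPM + 0.1 was -0.28 (standard error 0.14, 95% interval -0.58 to 0.03), which is a level 0.826 times that of the lean rats with an interval of 0.669 to 1.02. It did not pass the threshold in limma with Benjamini-Hochberg adjustment over all 15176 genes tested (adjusted p = 0.583), nor in an exact two-sided permutation test (p = 0.0909). Without obese rat 7, the lowest of all rats, the log2 fold change was -0.16. In this comparison 0.0% of the genes tested had an adjusted p under 0.05, and 1466 genes, or 9.66%, had an unadjusted p under 0.05. The paper did call genes in this comparison, with DESeq2 on read counts. The lack of calls here therefore holds for limma on TPM only.

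In the injected cohort, the contrast on which Slc15a2 was chosen, the mean was 14.4 ± 2.73 TPM in the lean control rats and 9.96 ± 1.49 TPM in the obese + TT rats (SD, n = 4 of each). The log2 fold change was -0.52 (standard error 0.16), and 5.01% of the 15259 genes tested had a value as low or lower. Lean control rat 13 was the single rat of its group within the range of the obese + TT rats, and without it the log2 fold change was -0.67. No gene had an adjusted p under 0.05 in limma in this comparison (0.0%), and 1134 genes, or 7.43%, had an unadjusted p under 0.05. In this cohort too the paper called genes with DESeq2 on read counts, so the lack of calls holds for limma on TPM only. The cohorts share no rat, and of the 2 log2 fold changes the -0.28 was tested and not called, while the -0.52 was the ground for choosing the gene. Full separation of the injected groups, which Slc15a2 missed by 1 of 16 pairs of rats, was found for 1.66% of the genes in the downward direction and 2.37% in the upward direction. These shares are for a stricter measure than Slc15a2 met, and the share of genes that missed by 1 pair was not counted.

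Red blood cell RNA differed beside these values. The summed TPM of 3 globin genes (Hba-a1, Hba-a2 and Hbb) was 3104 to 5471 in the lean rats and 4051 to 7019 in the obese rats. Lean control rat 13 had 5767, the remaining 3 of its group had 2168 to 3233, and the obese + TT group spanned 4799 to 8387. All 3 genes were higher at an unadjusted p under 0.05 in the untreated obese rats and 2 of 3 in the obese + TT rats, beside 5.91% and 4.25% of all genes in this direction, with none called after adjustment in limma. Lean control rat 13 thus had the highest globin sum and the lowest Slc15a2 of its group. Obese rat 7, lowest in Slc15a2, had a globin sum of 6586, the second highest of the obese rats. This order did not hold throughout. Obese rat 9 had the highest globin sum of its group, 7019, and 7.95 TPM of Slc15a2, above the group's median. Lean rat 4 had the highest sum of the lean rats, 5471, and 9.58 TPM of Slc15a2, also above its group's median. In the obese + TT group, rat 18 had both the lowest Slc15a2 and the lowest globin sum. The part of blood RNA in the difference of Slc15a2 was not tested.

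Slc15a4 was higher in the untreated obese rats than in the lean rats, the contrast on which it was chosen, and nearly level between the injected groups. It was between 3.80 and 4.90 TPM with a median of 4.05 TPM in the 6 lean rats. In the 6 obese rats it was between 4.65 and 6.83 TPM with a median of 5.46 TPM. Of the obese rats, 5 were above every lean rat, and obese rat 8, at 4.65 TPM, was below lean rat 5, at 4.90 TPM. The means were 4.19 ± 0.44 and 5.63 ± 0.72 TPM (SD, n = 6 of each), so that the obese mean was 34.4% above the lean mean, at a log2 fold change of 0.41 (standard error 0.10). Of all genes tested, 5.31% had a log2 fold change as high or higher. Groups that did not overlap, which Slc15a4 missed by 1 of 36 pairs of rats, were found for 0.297% of the genes in the upward direction. That share is for a stricter measure than Slc15a4 met, and the share of genes that missed by 1 pair was not counted.

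After injections, the lean control rats 13, 14, 15 and 16 had 9.48, 9.85, 8.91 and 12.29 TPM of Slc15a4. The obese + TT rats 17, 18, 19 and 20 had 9.20, 10.19, 8.59 and 10.24 TPM. The groups lay within one another apart from lean control rat 16, the highest, and obese + TT rat 19, the lowest. The means were 10.1 ± 1.49 and 9.56 ± 0.80 TPM (SD, n = 4 of each), and the log2 fold change was -0.08 (SE 0.11, 95% interval -0.33 to 0.18). The difference was within the spread between rats, with an adjusted p = 0.916 in limma over all genes tested and an exact two-sided permutation p = 0.629, where 4 rats against 4 cannot give a p below 0.0286. Without lean control rat 16 the log2 fold change was 0.02, so that its direction rested on that rat. Whether this value differed from the 0.41 of the untreated cohort was not tested, because the latter was the ground for choosing the gene.

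**Figure D2:**
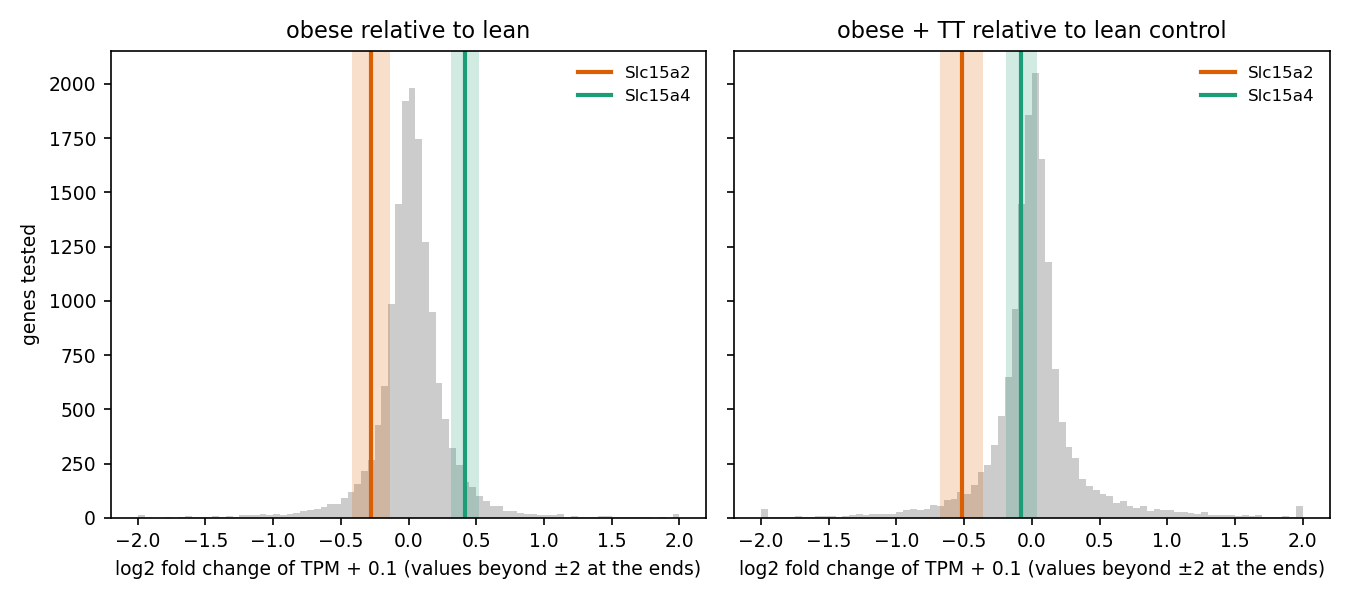
Log2 fold changes of TPM + 0.1 of all genes tested (grey, number of genes per bin) in obese relative to lean rats and in obese + TT relative to lean control rats, with Slc15a2 and Slc15a4 as coloured lines and bands of 1 standard error. The lines of Slc15a2 lie at -0.28 and -0.52, and those of Slc15a4 at 0.41 and -0.08.

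As TPM is a share of each library, a change in an abundant transcript shifts all others. The ratio of the transporters within a rat is free of that shift and describes their balance. Slc15a2 was 1.71 to 2.52 times as high as Slc15a4 in the lean rats, with a median of 2.38. In the obese rats the ratio was 0.93 to 1.70, with a median of 1.36, so that the untreated groups did not overlap. The narrowest gap lay between lean rat 5 at 1.71 and obese rat 8 at 1.70. In the lean control rats 13, 14, 15 and 16 the ratio was 1.09, 1.63, 1.75 and 1.27. In the obese + TT rats 17, 18, 19 and 20 it was 1.08, 0.82, 1.12 and 1.17, and the groups overlapped. The means were 2.19 ± 0.36 and 1.36 ± 0.28 in lean and obese rats (SD, n = 6 of each), and 1.43 ± 0.31 and 1.05 ± 0.16 in lean control and obese + TT rats (SD, n = 4 of each). Since the ratio holds the values on which the genes were chosen, these are descriptions without a test. How often the ratio of other gene pairs parts the untreated groups was not counted, so whether the lack of overlap sets this pair apart is not known.

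**Figure D3:**
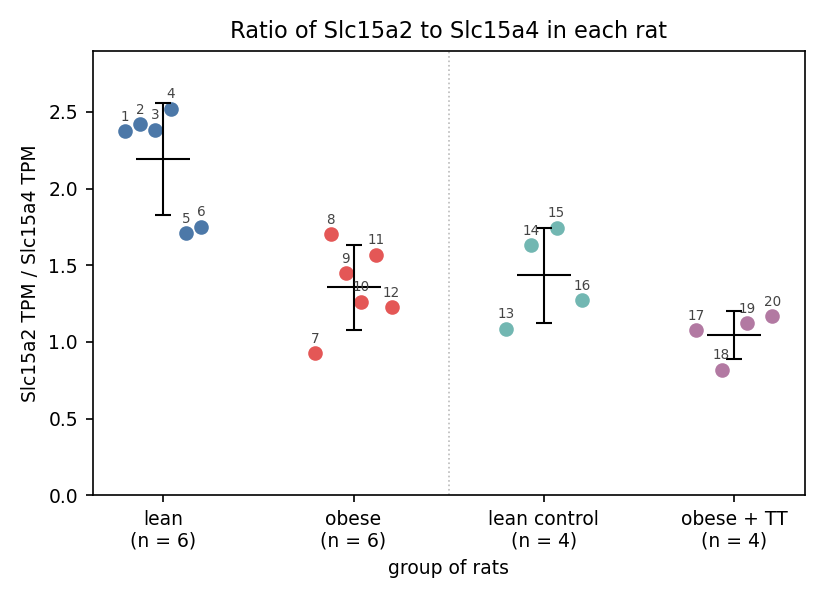
Ratio of Slc15a2 TPM to Slc15a4 TPM in each rat, by group, with the rat's number and bars of the mean ± SD. The 6 lean rats lie at 1.71 or above, the 6 obese rats at 1.70 or below, and the obese + TT rats between 0.82 and 1.17.

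Set in order of their means, the groups ran from lean control (14.4 TPM) through obese + TT (9.96 TPM) and lean (9.12 TPM) to obese (7.58 TPM) for Slc15a2. The middle groups, obese + TT and lean, differed by less than 1 SD of either, and each neighbouring pair in this order overlapped. For Slc15a4 the order was lean control (10.1 TPM), obese + TT (9.56 TPM), obese (5.63 TPM) and lean (4.19 TPM). The first pair differed by less than 1 SD, and a gap without overlap parted the injected from the untreated rats.

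The level of Slc15a4 was thus higher in the injected cohort, where the lean control mean was 2.42 times the lean mean and the obese + TT mean was 1.70 times the obese mean. On the log2 scale these differences were 1.25 and 0.76, against medians over all genes of 0.24 and 0.25 in the same direction. Groups without overlap were common between the cohorts, with 34.0% of 15327 genes higher in every lean control than in every lean rat and 34.1% of 15390 genes in every obese + TT than in every obese rat (10.7% and 11.7% in the downward direction), so that the lack of overlap does not set Slc15a4 apart. A log2 difference of its size or more was found for 7.52% of the genes between the lean groups and 21.5% between the obese groups. For Slc15a2 the same ratios of means were 1.58 and 1.31, with overlap in both cases. Its log2 differences of 0.64 and 0.40 were reached by 27.3% and 40.3% of the genes. When each library was scaled by its median ratio over the genes of at least 10 TPM in every rat, the log2 differences were 1.10 and 0.60 for Slc15a4 and 0.50 and 0.25 for Slc15a2.

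The cell type markers moved with the cohort as well. The lean control mean of the 10 epithelial markers ran from 0.85 times the lean mean for Ttr, the only one below 1, through 1.09 for Aqp1 (the water channel aquaporin 1) to 2.08 for Kcnj13 (the potassium channel Kir7.1) and 2.17 for Kl (the hormone co-receptor Klotho). Slc15a4, at 2.42, lay above all 10, whereas its ratio of 1.70 between the obese groups lay within their range there, 0.786 for Ttr to 2.22 for Kl. The 9 epithelial markers other than Ttr summed to 7328 to 9099 TPM in lean and 11381 to 12767 TPM in lean control rats. In the opposite direction, Dcn (decorin, of fibroblasts) was at 92.5 ± 13.0 TPM in lean rats (SD, n = 6) and 10.9 ± 2.20 TPM in lean control rats (SD, n = 4). Plvap (of fenestrated endothelium) was at 45.6 ± 4.22 and 5.25 ± 3.96 TPM. Col1a1 (a collagen of fibroblasts) was at 4.92 ± 0.86 and 0.49 ± 0.15 TPM, in the same direction as Dcn. Pdgfra, also listed for fibroblasts, went the other way and was 2.56 times as high in the lean control rats. Of the 9 macrophage markers listed, 1 has an identifier here, Lyz2 (lysozyme), at 296.7 ± 27.6 TPM in lean and 132.7 ± 65.5 TPM in lean control rats. Of the 7 astrocyte markers, 1 could be matched, Gja1 (connexin 43), at 5.21 to 7.39 TPM in lean and 1.21 to 2.47 TPM in lean control rats. None of the matched markers was at 0 in a group. Neuronal, oligodendrocyte, B cell and plasmacytoid dendritic cell lists could not be matched. The part of tissue composition in the levels of the transporters was not tested, and composition, injection, oil and cohort cannot be told apart here.

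**Figure D4:**
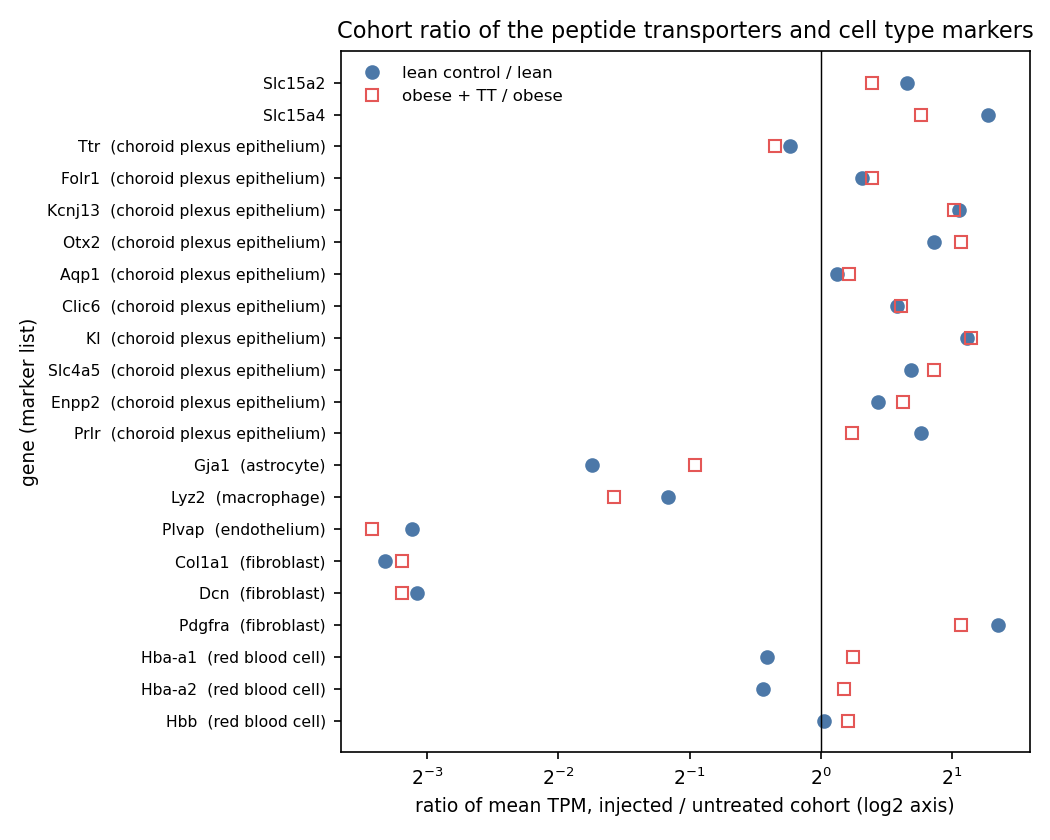
Ratio of mean TPM between the injected and the untreated cohort for both transporters and the matched cell type markers, on a log2 axis, for lean control over lean (filled circles) and obese + TT over obese (open squares). Slc15a4 lies at 2.42 and 1.70, the epithelial markers spread from 0.85 (Ttr) to 2.17 (Kl) for the lean rats, and Dcn, Col1a1 and Plvap lie below 0.12.

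Within a cohort some markers also differed, though none had an adjusted p under 0.05 in limma. Between the untreated groups, Slc4a5 (the sodium bicarbonate cotransporter NBCe2) was the 1 of 10 epithelial markers with an unadjusted p under 0.05, at a log2 fold change of -0.21, beside 3.75% of all genes in this direction. Of the 3 fibroblast markers, Col1a1 (a collagen) was at 0.51 with an unadjusted p under 0.05, beside 5.91% of all genes in the upward direction. Dcn was at -0.06 and Pdgfra at 0.17. Otx2, a transcription factor of the epithelium, spread from 7.85 to 85.9 TPM over the obese rats. Lyz2 and Gja1 stood at 0.06 and -0.07 there, where Slc15a4 was at 0.41. Between the injected groups, Prlr (the prolactin receptor) was the 1 of 10 epithelial markers with an unadjusted p under 0.05, beside 3.19% of all genes in the downward direction. Its log2 fold change was -0.63 (adjusted p = 0.127 in limma), without overlap of the groups, as was found for 1.66% of all genes in this direction. Gja1 was at 0.76, also without overlap but in the upward direction, as were 2.37% of all genes, and Lyz2 was at -0.33. Slc15a2 stood at -0.52 in the same comparison. The part of these markers in the values of the transporters was not tested.

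Around the transporters, genes of peptide breakdown, substrate metabolism, scaffolding and lysosomal sensing were listed in 6 groups. With Slc15a1, Slc15a3 and Slc15a5 they make 98 genes listed beside both members. Of these, 20 have an identifier in the tables used here, so the lists are covered in part only. The paper's supplement gave the identifiers and includes the genes it called in these same data. Matching may therefore favour changed genes, so the shares of all genes are no like measure for the 20. At an adjusted p under 0.05 in limma, 0 of the 20 were called in either cohort. At an unadjusted p under 0.05 there were 1 higher and 1 lower in the untreated obese rats, beside 5.91% and 3.75% of all genes, and 0 in the obese + TT rats, beside 4.25% and 3.19%. The median log2 fold change of the 20 was -0.02 and 0.01, where that of all genes tested was 0.02 and 0.01.

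Among 3 of 16 membrane peptidases, enzymes that cut peptides, Mmel1 (a neprilysin-like endopeptidase) had the lowest value in the untreated cohort. Lean rats had a mean of 5.62 ± 0.64 TPM and obese rats one of 3.23 ± 0.55 TPM (n = 6 per group, SD). The log2 fold change was -0.79 (95% interval -1.06 to -0.53, adjusted p = 0.0863 in limma), with no overlap of the groups, as was found in this direction for 0.244% of the genes. Its log2 fold change in the injected cohort was -0.45 (95% interval -0.98 to 0.09). Ace (angiotensin-converting enzyme, a dipeptidyl carboxypeptidase) was far more abundant, at 512.3 ± 41.6 and 520.7 ± 86.4 TPM in lean and obese rats, with a log2 fold change of 0.01 (95% interval -0.20 to 0.22). Erap1 (the peptide-trimming aminopeptidase of the endoplasmic reticulum) had log2 fold changes of -0.08 and -0.14.

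The scaffolds that hold transporters at the apical membrane were NHERF1 (Slc9a3r1) and NHERF2 (Slc9a3r2), the only 2 of 11 genes of proton and sodium exchange that could be matched. Lean rats had 13.0 ± 2.40 TPM of Slc9a3r2 and obese rats 17.1 ± 2.42 TPM (n = 6 per group, SD). Its log2 fold change of 0.41 (95% interval 0.13 to 0.68) was not called (adjusted p = 0.317 in limma). Slc9a3r1, at 53.3 ± 7.66 and 52.5 ± 6.93 TPM, had a log2 fold change of -0.02 (95% interval -0.25 to 0.21). In the injected cohort their log2 fold changes were 0.18 and 0.17, with intervals that held 0.

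The peptidases of the cytosol and lysosome had 5 of 18 listed genes matched, and none of the 5 passed an unadjusted p under 0.05. Their log2 fold changes lay between -0.08 and 0.08 in the untreated and between -0.04 and 0.08 in the injected cohort. They included Tpp1 (the lysosomal tripeptidyl peptidase, 76.4 ± 6.82 TPM in lean rats), Ctsc (the dipeptidyl peptidase cathepsin C, 87.3 ± 8.00 TPM) and Npepps (a cytosolic aminopeptidase, 26.5 ± 2.92 TPM). Each of the 3 was thus several times above the level of either transporter in TPM. Among 10 of 22 genes of lysosomal amino acid transport and of mTORC1 (the kinase complex that senses amino acids at the lysosome), the log2 fold changes ran from -0.08 to 0.16 and from -0.11 to 0.14. The largest of them in the untreated cohort was that of Tfeb, the transcription factor that drives lysosomal genes, with an interval of -0.04 to 0.37. Rragd (a Rag GTPase that recruits mTORC1) was at 0.14 in the injected cohort (95% interval -0.03 to 0.30), and Lamtor2 (of the lysosomal anchor of that complex) at -0.08 (95% interval -0.20 to 0.04). The genes of carnosine, glutathione and haem precursor metabolism and those of endolysosomal sensing were not analysed here.

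**Figure D5:**
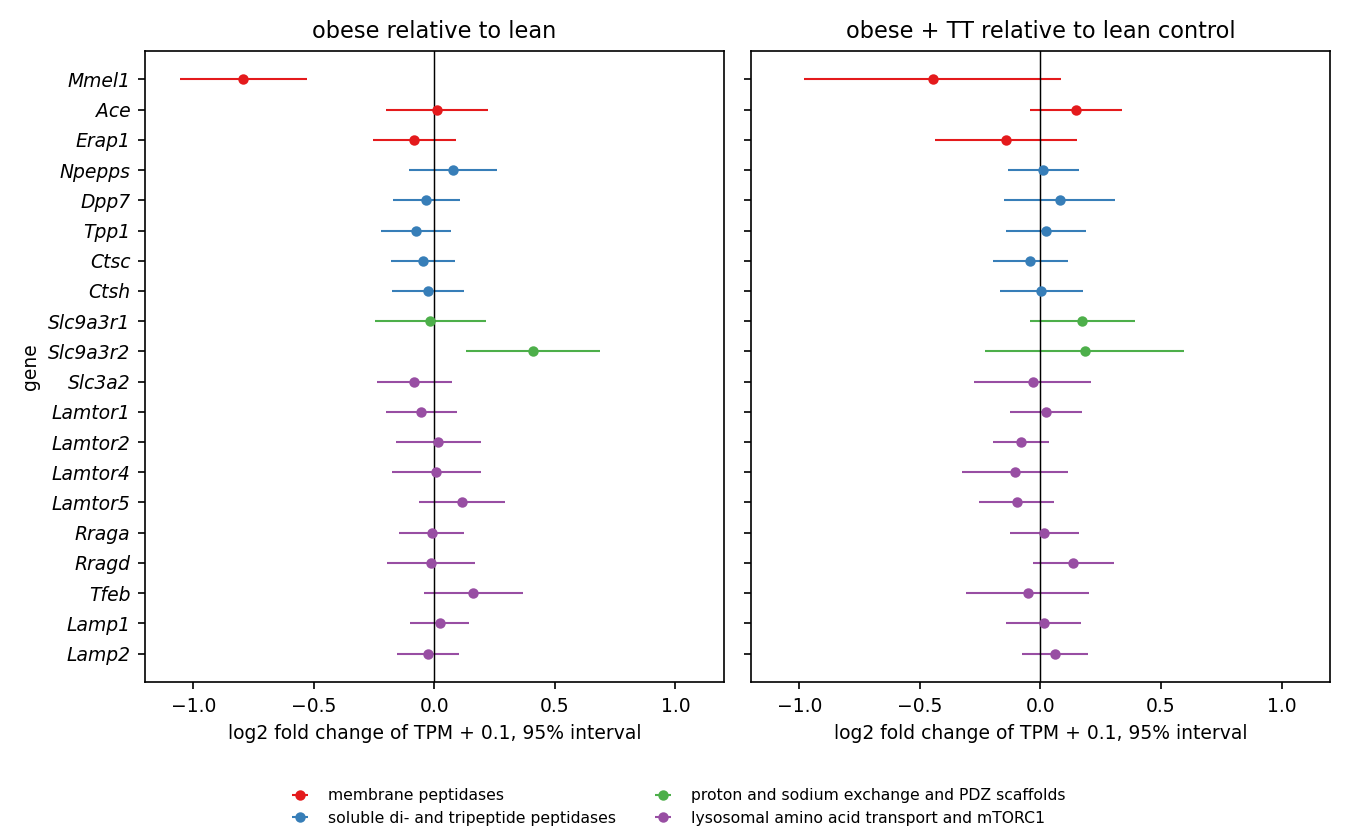
Log2 fold change of TPM + 0.1 with its 95% interval for the 20 matched genes of peptide handling, in obese relative to lean rats (left) and obese + TT relative to lean control rats (right). Mmel1 at -0.79 and Slc9a3r2 at 0.41 are the only genes whose interval leaves out 0, both in the untreated cohort.

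Among 2567 named genes whose mean reached 1 TPM, those that varied most like each transporter from rat to rat within the groups were found by Pearson's r of the deviations from the group means over the 20 libraries. For Slc15a2 they included Megf11 (a transmembrane protein with EGF repeats, r = 0.84), Rlbp1 (a retinaldehyde-binding protein, r = 0.84), Rsph4a (a radial spoke protein of motile cilia, r = 0.80) and Prrt1 (r = 0.77). For Slc15a4 they were Zic1 (a zinc finger transcription factor, r = 0.82), Gpt (alanine aminotransferase, r = 0.80), Hmces (a protein of DNA repair, r = 0.80), Tmem127 (an endosomal membrane protein, r = 0.79) and LOC103693780 (r = 0.79). Between the 2 transporters themselves r was 0.23. These values describe 20 libraries, and all genes within a library share its depth, composition and blood content. The genes were also picked as the highest of many.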

How the data were processed

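Choroid plexus RNA was sequenced as paired-end reads, which the authors mapped with STAR 2.7.9a to Rnor_6.0. RSEM 1.3.3 is among the tools in the submitters' processing notes, and DESeq2 was run by the authors on counts that were not used here. The authors deposited TPM for 32883 genes per rat, rounded to 2 decimals, and FPKM, which is the TPM of the same rat times 0.92 to 1.22. Whole reads were not recovered: for each of 190 library pairs, log2 ratios of FPKM values between 0.5 and 2 were binned at a width of 0.04, and the fullest bin held only 2.90 to 7.07% of the genes, so the depth per sample and its precision are unknown. Among the 42 pairs within a group, at most 0.463% of genes had identical values.

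As the values are not counts, they were fitted as log2(TPM + 0.1) with limma 3.58.1 (R 4.3.3) for genes whose mean reached 0.1 TPM. The fit had a trend in eBayes and used the groups of 1 comparison. It was checked on simulated data with larger changes than those of the transporters within a cohort, so the check does not cover changes of their size. Benjamini-Hochberg adjustment covered all genes tested, and an adjusted p under 0.05 was called. The pseudocount understates the change of low genes. Exact two-sided permutation tests compared mean log2(TPM + 0.1). Groups came from the sample titles. Alternatives were another pseudocount, filters, scalings, eBayes options, a fit of all 20 libraries and leaving out each rat. Symbols for 2616 identifiers came from the paper's supplementary tables, whose fold changes and p-values were not used. As these include the genes the paper called, the matched list and marker genes are not a neutral sample. The members and gene lists were chosen with earlier results of these data known. Beside the members, the 3 genes of each list with the smallest unadjusted p over both cohorts were named, with all lists given by count and range, and 5 genes most like each member, of which 1 is not reported here. Slc4a5 and the marker genes printed were picked after their values were seen. Python 3.11.15, pandas 2.3.3, SciPy 1.17.1 and matplotlib 3.10.9 were used.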

Additional observations from a re-analysis of the deposited data

Results flagged for a closer look

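A rat whose value lay far from the others of its group was looked for in both transporters, their ratio and 11 named genes, in 56 groups of rats. Of these, 5 were found, where chance gives about 1 in 20 for values not picked beforehand. The transporters and the named genes were picked from these same data, so that rate does not hold for them. The 5 are given as a description without a test. Lean control rat 13 had 10.31 TPM of Slc15a2, where the rest of its group had 15.56 to 16.06 TPM. Rragd was at 76.37 TPM in lean control rat 16, above the others (62.66 to 64.13 TPM), and that rat was also the highest of its group in Slc15a4, at 12.29 TPM. Tfeb was at 6.65 TPM in lean rat 2, above the others (5.22 to 5.45 TPM). Obese + TT rat 20 had 3.88 TPM of Mmel1, where the rest of its group had 7.62 to 8.12 TPM, and the same rat had the highest Slc15a2 of its group, at 11.95 TPM. Erap1 was at 36.42 TPM in lean rat 6, below the others (45.1 to 49.72 TPM), and lean rat 6 also had the lowest Slc15a2 of the lean rats, at 6.92 TPM. For none of the 11 named genes did the contrasts of the cohorts differ at an adjusted p under 0.05 in limma (smallest adjusted p = 0.729).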

How the results depend on the processing

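The log2 fold change of Slc15a4 in the untreated cohort ranged from 0.36 to 0.47 when 1 rat was left out and from 0.35 to 0.42 over the 9 other alternatives, and that of Slc15a2 in the injected cohort from -0.67 to -0.44 and from -0.53 to -0.48. Slc15a2 in the untreated cohort kept its direction, at -0.35 to -0.16 without 1 rat and -0.28 to -0.25 otherwise, with adjusted p-values in limma from 0.379 to 0.766. Its unadjusted p in limma was 0.0714 in the main fit. That p was under 0.05 with median-ratio scaling (0.0412) and with TPM rescaled without Ttr and mitochondrial transcripts (0.0460). It was also under 0.05 without lean rat 6 (0.0236) or obese rat 11 (0.0319), and above 0.05 in all other alternatives. Slc15a4 in the injected cohort was reversed to 0.019 without lean control rat 16, with a range of -0.13 to 0.02 over the rats left out, -0.09 to -0.07 otherwise and adjusted p-values in limma from 0.838 to 0.984. The number of genes with an adjusted p under 0.05 in limma, 0 in both cohorts, was 1 with FPKM and 3 with all 20 libraries in the untreated cohort, and 2 with median-ratio scaling and 6 with all 20 libraries in the injected cohort. Leaving out 1 rat gave 0 to 1 genes in the untreated cohort (1 without lean rat 2, lean rat 6 or obese rat 7) and 0 to 25 in the injected cohort (25 without lean control rat 13, 4 without obese + TT rat 19, 3 without lean control rat 15, 2 without obese + TT rat 17 and 1 without lean control rat 14 or obese + TT rat 20). The listed peptide-handling genes with an unadjusted p under 0.05 numbered 2 to 3 in the untreated cohort. In the injected cohort there were 0, but 1 with all 20 libraries and 0 to 3 without 1 rat (3 without lean control rat 16, 1 without lean control rat 13 or obese + TT rat 17, 19 or 20). Apart from the smaller number of rats, the cause of these changes was not tested. The scalings of the cohort difference were chosen after seeing the data. No paired analysis was possible because the groups share no replicate numbers. Depth is unknown, so what it limits could not be stated. The p-values set the difference of the groups against the spread between single rats, which limma draws toward a trend over all genes.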
